A study of Mus musculus with 36 samples.

Results

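Transient mid-course responders are genes whose mean level differed between cells with induced Ikaros and control cells at 6 h or 12 h. At 0 h and 24 h these genes had at most a small difference in means. They were selected on measured values, namely the mean of the 3 Ikaros libraries minus the mean of the 3 control libraries at each time, on the log2 scale of the deposited table. A member had a mean level of at least 9.5 over the 36 libraries, a difference of at most 0.35 in either direction at 0 h and at 24 h, and a difference of at least 0.8 at 6 h or 12 h. Of 12762 genes in the table, 9584 reached the level minimum and 165 were members. The difference was positive in 74 members, called rising here, and negative in 85, called falling. The remaining 6 were higher in Ikaros cells at 6 h and lower at 12 h, which brings the rising set to 80 and the falling set to 91 when they are counted in both.

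Messenger RNA had been sequenced from B3, a mouse pre-B cell line, in 2 versions. The Ikaros version carries a retroviral vector for HA-Ikaros-ERt2-IRES-GFP, in which tagged Ikaros is joined to the ligand-binding part of an estrogen receptor. The control version carries ERt2 and GFP without Ikaros. Each version was collected at 0, 2, 6, 12, 18 and 24 h with n = 3, from culture batches 1, 2 and 4 at 0 h and batches 1, 3 and 4 later, and the drug 4-hydroxy-tamoxifen (4-OHT) is listed for every library at 0.5 uM in the labels. According to the methods, the 0 h cultures had no drug and were grown on other occasions, so time 0 h and collection occasion cannot be told apart. All libraries come from this 1 cell line and forced Ikaros expression, and depth per library is unknown from the deposited values.

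Ikaros is a zinc finger transcription factor that binds DNA directly and pushes dividing pre-B cells out of the cycle and toward a small, resting stage. Fusion to the receptor domain holds the protein in the cytoplasm until 4-OHT releases it to the nucleus, so the time course starts from a defined moment. Target genes are repressed or activated, and many pass the signal on to further transcription factors. Ikzf1, the gene for Ikaros, lay between 19.63 and 20.93 in the 18 Ikaros libraries and between 13.95 and 14.85 in the 18 control libraries, so the labels and the transgene match. All 12 pre-B markers examined were in the table, while 2 of 9 T cell, 2 of 9 myeloid, 3 of 9 erythroid and 0 of 7 stromal markers were, and none of these was a member. In RNA from a whole culture, fewer cells of a kind and less RNA per cell cannot be told apart.

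Among genes that had a difference of at most 0.35 at 0 h and at least 0.8 at 6 h or 12 h, coming back was uncommon. These numbered 1679, of which 1514 still differed by more than 0.35 at 24 h and 165, or 9.83%, did not. The median difference of the 74 rising members was 0.06 before induction and 0.42, 0.87, 0.61, 0.31 and 0.06 after 2, 6, 12, 18 and 24 h. For the 85 falling members the median was -0.05, -0.44, -0.86, -0.84, -0.35 and -0.12 at the same times. The largest mid-course difference came at 6 h in 47 of the 74 rising and 46 of the 85 falling members, and at 12 h in the rest. At that time the lines did not overlap in 61 of the 74 rising and 76 of the 85 falling members. By the same measure they did not overlap in 6420 of the 9584 genes at or above the level minimum. Among the 1514 genes that still differed at 24 h they did not overlap in 1448, so such separation was common and does not set the members apart. The rule limits the difference in means at 0 h and 24 h and does not require the lines to overlap there. The values at 0, 6, 12 and 24 h chose the genes and are given without a test.

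**Figure D1:**
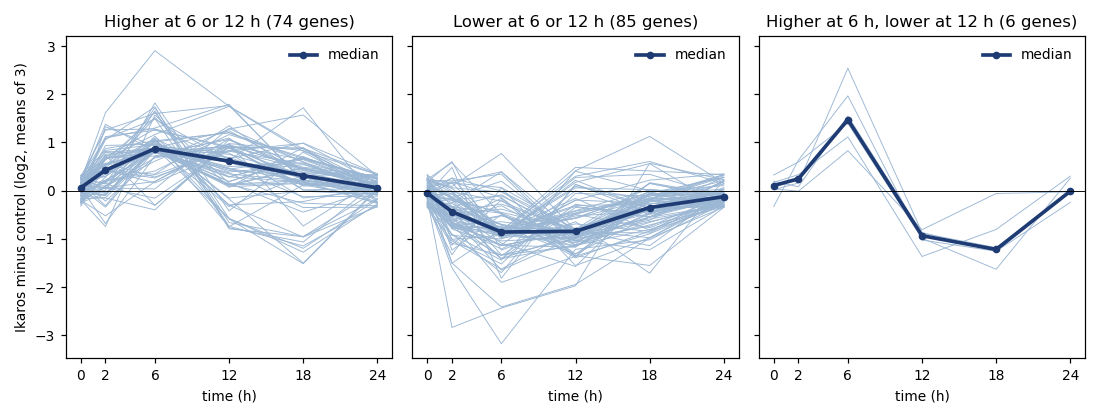
Difference between Ikaros and control means (log2, y axis) against time (h, x axis) for each of the 165 members (thin lines) and the median (thick line), for members higher at 6 or 12 h, lower at 6 or 12 h, or higher at 6 h and lower at 12 h. The medians peak at 0.87 and reach -0.86 at 6 h and lie near 0 at 24 h, which the selection required at both ends.

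The rising members included transcription factors, signalling enzymes and cell cycle genes. Prr5 (ENSMUSG00000036106, GRCm38 chr15:84669620-84703673, 8 exons in the annotated transcript used) encodes Protor-1, a component of the mTORC2 kinase complex. Its level in Ikaros cells began at 11.83, 11.88 and 11.85. It was 13.07, 12.99 and 12.83 after 2 h, 13.51, 13.24 and 13.03 after 6 h, and 13.17, 13.75 and 13.40 after 12 h. By 18 h it stood at 12.06, 12.17 and 11.88, and by 24 h at 11.46, 11.94 and 11.61. In control cells the 18 values of Prr5 stayed between 11.46 and 12.18. The lines did not overlap from 2 h to 12 h and overlapped at 18 h and 24 h.

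Runx3 (ENSMUSG00000070691, chr4:135120652-135177990) encodes a Runt-family transcription factor with roles in lymphocyte development. Ikaros cells had 14.37, 14.26 and 14.24 at 0 h, 15.80, 15.61 and 15.14 at 6 h, and 14.42, 14.47 and 14.17 at 18 h, against 14.21, 14.17 and 13.72 in control cells at 6 h. Batch 4 gave the lowest Runx3 value in both lines at 2 h and at 6 h, and the lines did not overlap at either time. Tfeb (ENSMUSG00000023990, chr17:47737030-47792419), a master regulator of lysosome genes, had 12.26, 12.36 and 12.88 in Ikaros cells at 2 h against 11.47, 11.20 and 11.47 in control cells, and 11.54, 11.59 and 11.25 against 11.28, 11.33 and 11.72 at 18 h. The lines did not overlap in Tfeb at 2 h and overlapped at 18 h, when batch 4 gave the lowest Ikaros and the highest control value.

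Map4k2 (ENSMUSG00000024948, chr19:6341135-6355615), a kinase upstream of JNK, changed more slowly. Its Ikaros values were 13.93, 14.08 and 14.12 after 2 h, 14.54, 14.73 and 14.76 after 6 h, and 15.00, 15.15 and 15.32 after 12 h. They came down to 14.27, 14.29 and 14.27 by 18 h and 13.74, 13.91 and 13.94 by 24 h, while its 18 control values ran from 13.22 to 13.71. The 24 h difference, 0.33, was close to the limit of 0.35, and the lines did not overlap at 24 h. The largest difference of the rising set, 2.90 at 6 h, belonged to 5330426P16Rik (annotated as the long intergenic noncoding RNA Dubr), where 1 control library at 6 h was at 7.68 and the other two at 9.49 and 9.34. Selenbp1, which encodes a selenium-binding protein, was 13.63, 13.96 and 13.49 in Ikaros cells at 12 h and 11.67, 12.23 and 11.82 in control cells, but its 0 h values spread from 11.20 to 12.63 in control and from 11.25 to 13.04 in Ikaros cells. Others of the 12 largest rises with a symbol had differences at 6 h of 1.82 for the snoRNA gene Gm22806, 1.74 for the pseudogene 1700018M17Rik and 1.57 for 1700047I17Rik2, in each of which the lines overlapped. The pseudogenes Gm10241, Gm10254 and Gm10123, at 1.72, 1.65 and 1.64, did not overlap.

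The falling members held the steepest early responses. Thbd (ENSMUSG00000074743, chr2:148404466-148408188, a single exon) encodes thrombomodulin, a cell surface receptor for thrombin. Ikaros cells began at 13.08, 12.69 and 12.78 and stood at 10.06, 10.17 and 9.52 after 2 h. They had 10.02, 10.07 and 9.89 after 6 h, 10.53, 10.48 and 10.92 after 12 h, and 12.63, 12.41 and 13.07 by 18 h. Control cells had 12.92, 13.03 and 12.30 at 2 h and 12.38, 11.97 and 12.05 at 18 h, so the lines stood apart in opposite directions at these times.

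A slower recovery was seen for 2900026A02Rik (ENSMUSG00000051339, chr5:113086323-113221236), which had 12.58, 12.07 and 11.33 in Ikaros cells at 6 h against 14.63, 14.51 and 14.07 in control cells, and 13.75, 13.60 and 13.64 against 15.11, 14.71 and 14.12 at 18 h. The lines still did not overlap at 18 h. Evi2a (ENSMUSG00000078771, chr11:79526560-79530609), which encodes a small membrane protein, had 8.77, 9.20 and 9.09 in Ikaros cells at 6 h against 10.49, 10.39 and 10.51 in control cells. At 18 h it had 10.99, 10.90 and 10.94 against 9.76, 9.94 and 9.75, again a crossing from below to above the control. Zfp36l2 (ENSMUSG00000045817, chr17:84183931-84187947), whose product binds AU-rich elements and speeds mRNA decay, had 14.86, 14.76 and 13.94 in Ikaros and 16.14, 16.13 and 15.00 in control cells at 2 h, with the lowest value of each line in batch 4.

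Of the 85 falling members 8 were long noncoding (9.41%) and 5 small noncoding RNA genes (5.88%). These kinds made up 2.41% and 1.53% of the 9584 genes at or above the level minimum. The rising members held a similar long noncoding share, 6 of 74 (8.11%), and 2 small noncoding genes (2.70%). Among the genes that stayed apart at 24 h the shares were 4.49% and 2.64%. The lincRNA Gm13067 had the largest difference of all members, -3.17 at 6 h, with 8.17, 7.80 and 6.19 in Ikaros and 11.09, 10.76 and 9.84 in control cells. Also among the 12 largest with a symbol in the deposited table were the lincRNA E130102H24Rik (-1.52 at 6 h), the antisense RNA Gm11998 (-1.42 at 6 h) and the snoRNA gene Snord72 (-1.55 at 12 h), all without overlap of the lines. The lincRNA AU020206, which has its symbol from GENCODE alone, lay among them in size (-1.62 at 6 h), with 15.68, 15.68 and 15.22 in Ikaros and 17.27, 17.27 and 16.92 in control cells. It was already lower at 2 h (-1.04, SE 0.18, adjusted p = 0.000151) and was not called at 18 h. Of the protein-coding genes, Fam151b was lower by 1.57 (-1.57) at 12 h without overlap, and the zinc finger gene Zfp955a by 1.90 (-1.90) at 6 h with overlap. The unannotated genes Gm10138 and C030013D06Rik differed by -1.81 and -1.70 at 6 h, and the lines overlapped in the second.

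**Figure D2:**
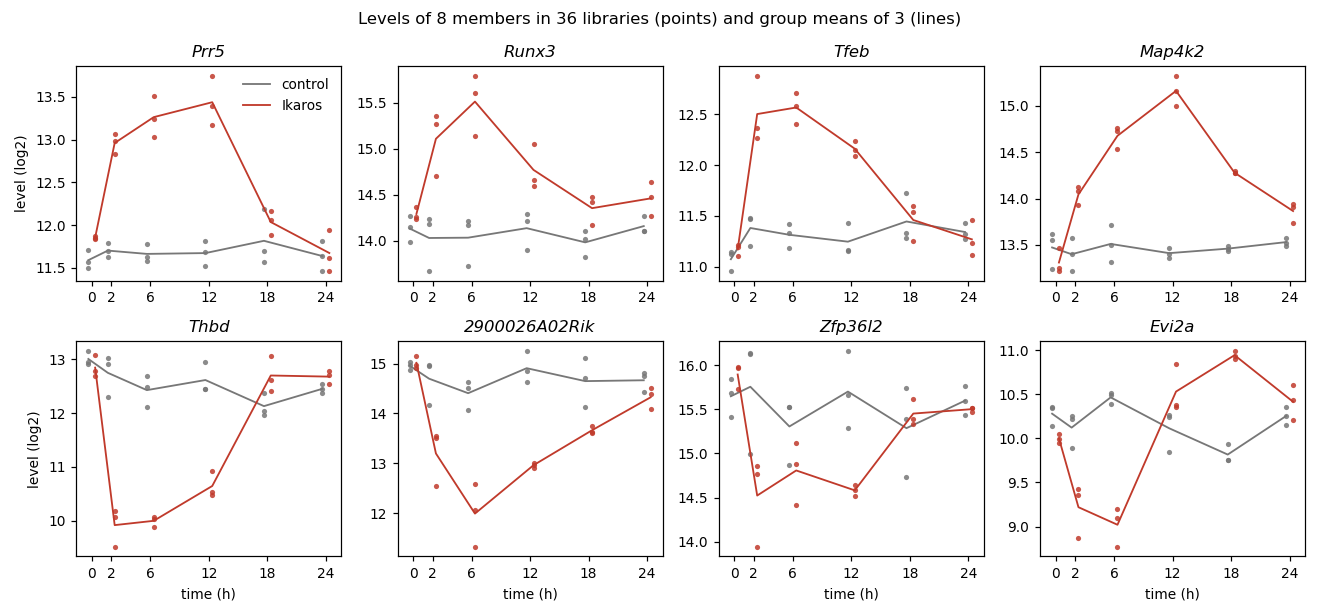
Level (log2, y axis) of 8 members against time (h, x axis) in each library (points) and as means of 3 (lines), control in grey and Ikaros in red, with points of the lines set slightly apart. Prr5, Runx3, Tfeb and Map4k2 lie above the control at 6 h and Thbd, 2900026A02Rik, Zfp36l2 and Evi2a below it, and Thbd and Evi2a lie above it at 18 h.

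Promoters are shown for the 2 rising and 2 falling protein-coding members with the largest mid-course difference among those holding the Ikaros core motif in the 250 bases before the start, since Ikaros binds DNA directly. The sequences are from RefSeq (GRCm38.p6), in lower case on the gene's strand, with TGGGAA or its reverse complement TTCCCA in capitals. They lie at chr4:135120395-135120644 (plus strand) for Runx3, chr17:47736787-47737036 (plus) for Tfeb, chr13:92484032-92484281 (minus) for Fam151b and chr1:74601398-74601647 (minus) for Rnf25.
Runx3: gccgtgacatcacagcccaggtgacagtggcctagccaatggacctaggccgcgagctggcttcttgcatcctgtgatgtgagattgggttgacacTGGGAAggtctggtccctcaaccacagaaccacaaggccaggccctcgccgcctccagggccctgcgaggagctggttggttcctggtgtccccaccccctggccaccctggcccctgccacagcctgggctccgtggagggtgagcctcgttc
Tfeb: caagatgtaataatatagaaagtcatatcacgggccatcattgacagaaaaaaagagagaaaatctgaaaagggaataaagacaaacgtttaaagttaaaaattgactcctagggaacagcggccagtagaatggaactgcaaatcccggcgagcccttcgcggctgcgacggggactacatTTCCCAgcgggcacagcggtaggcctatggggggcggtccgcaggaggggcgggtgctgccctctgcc
Fam151b: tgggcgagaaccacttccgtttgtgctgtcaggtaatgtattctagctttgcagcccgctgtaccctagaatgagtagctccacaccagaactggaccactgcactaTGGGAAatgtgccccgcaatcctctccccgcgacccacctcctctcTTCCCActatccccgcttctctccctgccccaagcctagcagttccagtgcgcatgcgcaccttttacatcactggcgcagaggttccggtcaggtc
Rnf25: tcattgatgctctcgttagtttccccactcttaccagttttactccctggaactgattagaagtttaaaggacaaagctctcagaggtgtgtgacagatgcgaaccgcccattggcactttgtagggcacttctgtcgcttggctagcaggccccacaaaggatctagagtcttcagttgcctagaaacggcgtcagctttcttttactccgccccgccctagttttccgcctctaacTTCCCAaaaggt

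The first base of the motif lay 154 bases before the start in Runx3, 68 in Tfeb, 143 and 97 in Fam151b and 12 in Rnf25, a ubiquitin ligase gene. In windows from 250 bases before to 50 bases after the start, TGGGAA on either strand was present in 9 of 45 rising (20.0%) and 14 of 60 falling members (23.3%) with a promoter in the table, beside 22.4% of 9185 genes. A promoter was found for 45 of the 74 rising and 60 of the 85 falling members. The E-box CACGTG, bound by Myc and Max, was in 17.8% of rising and 11.7% of falling promoters against 10.4% of all, and the Ets motif CCGGAAG was in 17.8% and 11.7% against 20.1%. The NF-Y motif CCAAT was in 46.7% and 36.7% against 39.7%, the Foxo motif GTAAACA in 2.22% and 6.67% against 2.34%, and TTTGAA, a form of the cell cycle homology region, in 13.3% and 21.7% against 11.9%. Each match is a description of letters in the window, and the counts behind the rarer motifs are as low as 1.

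The libraries at 2 h and 18 h did not enter the selection, apart from the mean level, so they allow tests. Values were compared with limma over all 12762 genes and called at an adjusted p under 0.05, with the spread estimated over all 12 groups, including those used to select. At 2 h, 22 of the 74 rising members were higher in Ikaros cells (29.7%) and 1 was lower, where 9.18% of all genes were called higher and 9.88% lower. Of the 85 falling members, 32 were lower (37.6%) and 0 were higher. Nothing was called at 2 h among the 6 members that change direction. The shares at 2 h were near those of genes that passed the same mid-course minimum but stayed apart at 24 h. These were 29.4% of 690 higher genes and 33.0% of 824 lower ones. The sets were not matched in size or timing of the difference. Of those 1514 genes 1162 had the larger mid-course difference at 12 h, against 27 of the 74 rising and 39 of the 85 falling members. Within the batches, all 23 rising (22 higher, 1 lower) and 32 falling members called at 2 h had 1 sign in batches 1, 3 and 4. The same libraries made the calls, so this is a description and no separate support. In the members' own direction, the counts without replicate 2 (batch 3 at this time) were 12 rising and 11 falling. Without replicate 1 they were 13 and 15, and a fit of the compared groups alone gave 9 and 7. A library preparation covariate gave 14 and 18.

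At 2 h the largest rises were those of 5330426P16Rik, by 1.62 (SE 0.45, adjusted p = 0.0119), Lrfn1, which encodes a neuronal adhesion protein, by 1.38 (SE 0.14, adjusted p = 6.62e-08), and A030009H04Rik, by 1.26 (SE 0.17, adjusted p = 4.03e-06). Prr5 rose by 1.26 (SE 0.15, adjusted p = 9.73e-07), Tfeb by 1.12 (SE 0.14, adjusted p = 1.27e-06), Runx3 by 1.08 (SE 0.19, adjusted p = 0.000113) and Map4k2 by 0.64 (SE 0.11, adjusted p = 0.000106). The rise of 5330426P16Rik was called in 5 of 9 alternative fits, with an adjusted p up to 0.0900, that of Runx3 and Map4k2 in 8, and that of the other four genes in all 9. Lrfn1 had 9.30, 9.36 and 9.08 in control and 10.50, 10.70 and 10.66 in Ikaros cells at 2 h, so the lines did not overlap.

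On the falling side at 2 h, Thbd fell by 2.84 (-2.84, SE 0.20, adjusted p = 7.61e-11), the lincRNA Gm13067 by 1.60 (-1.60, SE 0.48, adjusted p = 0.0190) and Fbxo28, an F-box gene, by 1.50 (-1.50, SE 0.13, adjusted p = 1.60e-09). Fbxo28 had 9.63, 9.78 and 9.30 in Ikaros and 10.92, 11.24 and 11.07 in control cells. Also lower were 2900026A02Rik (-1.50, SE 0.28, adjusted p = 0.000290), Zfp36l2 (-1.23, SE 0.28, adjusted p = 0.00245) and Ankrd28, a regulatory subunit of protein phosphatase 6 (-1.09, SE 0.14, adjusted p = 1.61e-06). Thbd, Fbxo28 and Ankrd28 were called in all 9 alternative fits, whereas Gm13067 and Zfp36l2 were called in 6 and 2900026A02Rik in 7. Those 3 calls were lost without replicate 2, as were those of Skp2, Bcl2l2, Cenpf, Pou2f2 and 5330426P16Rik at this time.

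At 18 h a smaller share of members was called than of the genes that stayed apart to 24 h. Of the 74 rising members 26 were still higher (35.1%), beside 29.0% of all genes, and 5 were lower, beside 29.2%. Of the 85 falling members 26 were still lower (30.6%) and 3 were higher, so shares in the members' own direction were near the background at this time. Among the genes that stayed apart at 24 h, 89.7% of higher and 88.6% of lower ones were called in their own direction at 18 h. In rising members the median difference was 0.31 and in falling members -0.35, against 1.25 and -1.30 in those lasting genes. Members and lasting genes were separated by their difference at 24 h, the next time collected. A gap between them at 18 h therefore follows in part from the selection and is no separate support. The sets were also not matched in size or timing of the difference. Calls at both times in the members' own direction were made for 9 rising and 10 falling members, and 31 rising and 36 falling members were called at neither time. The share of all genes called at both times, or at neither, was not computed, so these counts are a description. Called at 18 h in either direction were 31 rising and 29 falling members. Within the batches, 29 of the 31 and 28 of the 29 had 1 sign in all 3 batches, the exceptions being Dexi, Degs1 and 9930104L06Rik. As at 2 h, the same libraries made the calls. In the members' own direction, the counts without replicate 2 were 11 rising and 8 falling. Without replicate 1 there were 14 falling, and without replicate 3 there were 41 falling. The library preparation covariate gave 17 rising and 15 falling.

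Members still higher at 18 h included E2f2, a transcription factor gene of the cell cycle, with 15.00, 14.94 and 14.76 in Ikaros and 14.12, 13.86 and 14.09 in control cells (0.88, SE 0.10, adjusted p = 1.64e-08). Map4k2 was also higher (0.82, SE 0.11, adjusted p = 4.41e-07), as was Gsta4, a glutathione S-transferase gene, with 12.34, 11.94 and 11.73 against 10.73, 10.34 and 10.24 (1.57, SE 0.25, adjusted p = 5.83e-06). The antisense RNA gene 4930550G17Rik was higher by 1.72 (SE 0.65, adjusted p = 0.0265), with 10.67, 10.75 and 10.31 in Ikaros and 9.84, 9.84 and 6.90 in control cells. Without replicate 3, which holds the low control library, its difference was 0.88 and was not called. Prr5, Tfeb and Runx3 were not called at 18 h, with differences of 0.22, 0.01 and 0.37. Of the falling members, Evi2a (1.13, SE 0.15, adjusted p = 3.10e-07), Thbd (0.57, SE 0.20, adjusted p = 0.0174) and Pafah1b3 (0.61, SE 0.20, adjusted p = 0.0121) were now higher in Ikaros cells. The 5 rising members that were lower at 18 h were Adap1, Gm15453 and the pseudogenes Vdac3-ps1, Gm10241 and Gm15500, of which Gm15500 was lowest (-1.51, SE 0.53, adjusted p = 0.0169). The snRNA gene Gm23966, a falling member, had the largest negative difference (-1.71, SE 0.59, adjusted p = 0.0152). Without replicate 2 the 18 h calls of Gm23966, Pafah1b3, Thbd, Gm15500, Dlg2 and Lmnb1 were lost, and Gm15500 was then at -1.001. Without replicate 3 the 18 h difference of Thbd was 0.34 (adjusted p = 0.114).

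The change of the difference between 2 h and 18 h was then tested directly. It was called lower for 9 of 74 rising members (12.2%) and higher for 6, beside 21.0% and 21.2% of all genes. In falling members it was called higher for 16 of 85 (18.8%) and lower for 5. A replicate block for the culture batch gave a rising count of 16. Without replicate 2 the rising count was 5 and the falling count 5, without replicate 1 the falling count was 7, and a fit of only the compared groups gave 7 falling. With the library preparation covariate 5 rising and 6 falling members were called. Thbd changed by 3.41 (SE 0.29, adjusted p = 7.09e-10), Evi2a by 2.03 (SE 0.21, adjusted p = 2.17e-08) and Fbxo28 by 1.43 (SE 0.18, adjusted p = 4.37e-07), all toward or past the control. Lrfn1 changed by -1.21 (SE 0.20, adjusted p = 3.06e-05), Tfeb by -1.11 (SE 0.20, adjusted p = 6.50e-05) and Prr5 by -1.04 (SE 0.22, adjusted p = 0.000409). Each of these 6 was called in all 9 alternative fits, with Tfeb at -0.72 without replicate 3, while the change of Runx3 (-0.71, SE 0.26, adjusted p = 0.0317) was called in 5.

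Each line was also compared with itself. Between 2 h and 18 h in Ikaros cells, 12 of the 74 rising members rose and 16 fell, and 21 of the 85 falling members rose and 10 fell, beside 27.8% of all genes higher and 27.6% lower. In control cells 0 of the 165 members were called by limma, and 0 with the replicate block, while 8 had an unadjusted p under 0.05. Over all genes that comparison called 0.00784% higher and 0.00784% lower. Without replicate 1 or without replicate 2, 11 falling members rose in Ikaros cells. Thbd rose in Ikaros cells by 2.79 (SE 0.20, adjusted p = 1.22e-11) and Evi2a by 1.72 (SE 0.15, adjusted p = 2.94e-10). Adap1, which encodes an ArfGAP protein, fell by 0.67 (-0.67, SE 0.08, adjusted p = 8.02e-08).

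**Figure D3:**
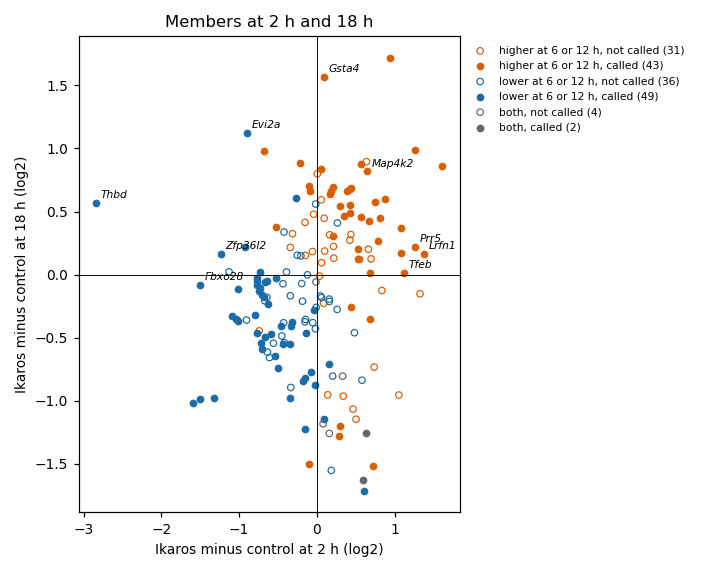
Ikaros minus control (log2) at 2 h (x axis) and 18 h (y axis) for the 165 members, by direction at 6 or 12 h (colours), with filled points for genes called at 2 h or 18 h and open points for the others. Called at either time, in either direction, are 43 of 74, 49 of 85 and 2 of 6 members. Of all genes 29.0% were called higher and 29.2% lower at 18 h alone, so these counts do not set the members apart. Thbd and Evi2a lie in the upper left, lower at 2 h and higher at 18 h.

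A difference at 6 h or 12 h can come from either line, so each line was set against its own 0 h cultures, as a description since the rule used these libraries. In 47 of the 74 rising members and 75 of the 85 falling members the Ikaros line had moved further. In 27 rising and 10 falling members the control line had. By the same measure the Ikaros line had moved further in 6994 of the 9584 genes at or above the level minimum. It had also done so in 1352 of the 1514 genes that stayed apart at 24 h, so a larger shift in the Ikaros line was common and not particular to the members. Among the 56 protein-coding rising members, 18 had the larger shift in the control line, and the mean level of these 56 was 11.80 at 0 h and 11.63 at 6 h in control cells, while Ikaros cells went from 11.85 to 12.43. The 66 protein-coding falling members averaged between 11.75 and 11.83 in control cells at every time, and 11.79, 11.34, 11.01, 11.09, 11.52 and 11.66 in Ikaros cells from 0 h to 24 h.

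Lmnb1, the gene for lamin B1 of the nuclear envelope, shows the second kind of origin. Control cells had 15.38, 15.29 and 15.53 at 0 h and 14.81, 14.96 and 14.34 at 6 h, while Ikaros cells had 15.56, 15.26 and 15.40 at 0 h and 15.69, 15.66 and 15.35 at 6 h. The difference of 0.87 at 6 h was therefore mostly a lower control level, and at 18 h the gene was higher in Ikaros cells (0.67, SE 0.19, adjusted p = 0.00418). Ect2, which encodes a guanine nucleotide exchange factor needed in cytokinesis, was similar at 6 h, with 11.52, 12.24 and 12.09 in control and 13.17, 12.74 and 12.90 in Ikaros cells.

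**Figure D4:**
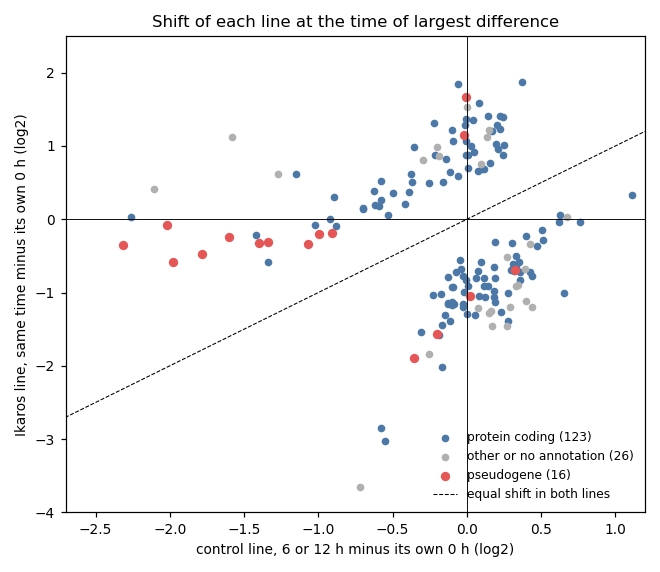
Shift of the Ikaros line (y axis, log2) against that of the control line (x axis, log2), each from its own 0 h mean to the time of the member's largest difference, for 123 protein-coding genes (blue), 16 pseudogenes (red) and 26 others (grey), with a dashed line of equal shift. Most points lie along the vertical axis, and a row of pseudogenes lies to the left, where the control shift reaches -2.31.

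Pseudogenes made up 9 of 74 rising (12.2%), 3 of 85 falling (3.53%) and 4 of the 6 other members (66.7%), beside 1.82% of the 9584 genes at or above the level minimum. In 7 of the 9 rising pseudogenes the control line had the larger shift, with a median of -1.34 in control and -0.31 in Ikaros cells. In the 3 falling pseudogenes the Ikaros line had it, with a median of -1.05 against 0.02 in control cells. Gm10123, a processed pseudogene, had 15.16, 16.05 and 15.65 in control cells at 0 h and 13.52, 14.06 and 12.34 at 6 h, while Ikaros cells had 15.66, 15.01 and 14.17 at 6 h and 14.11, 13.56 and 12.03 at 18 h. The spread among its 3 libraries was over 1 unit in most groups. The 6 members that were higher at 6 h and lower at 12 h were Gm8203, Gm2000, Gm21596, Tpt1-ps3, Gm6863 and Gm10075, and in 5 of them the control line moved further. Gm2000 had 11.90, 13.27 and 12.73 in control cells at 6 h against 14.43, 15.34 and 14.91 at 0 h, and was lower in Ikaros cells at 18 h (-1.26, SE 0.52, adjusted p = 0.0401), a difference that was -0.82 without replicate 2 and not called. Tpt1-ps3 was also lower at 18 h (-1.63, SE 0.45, adjusted p = 0.00299).

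The same pattern was present in pseudogenes that were not members, where it varied between libraries. The mean of 116 other processed pseudogenes was 12.29, 12.25 and 12.28 in control cells at 0 h and 11.22, 11.76 and 11.28 at 6 h. In Ikaros cells it was 11.51, 12.30 and 11.06 at 12 h and 11.58, 11.34 and 11.11 at 18 h. Processed pseudogenes share most of their sequence with a parent gene, so their counts, and those of small nuclear and nucleolar RNAs in libraries made from polyadenylated RNA, are uncertain. The part of these library levels in the members' differences was not tested. Among protein-coding members, Rpl22 and Cbx3, which have many processed copies, and the antisense members, for which the strand setting of the counting is not given in the sources used here, share that uncertainty.

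**Figure D5:**
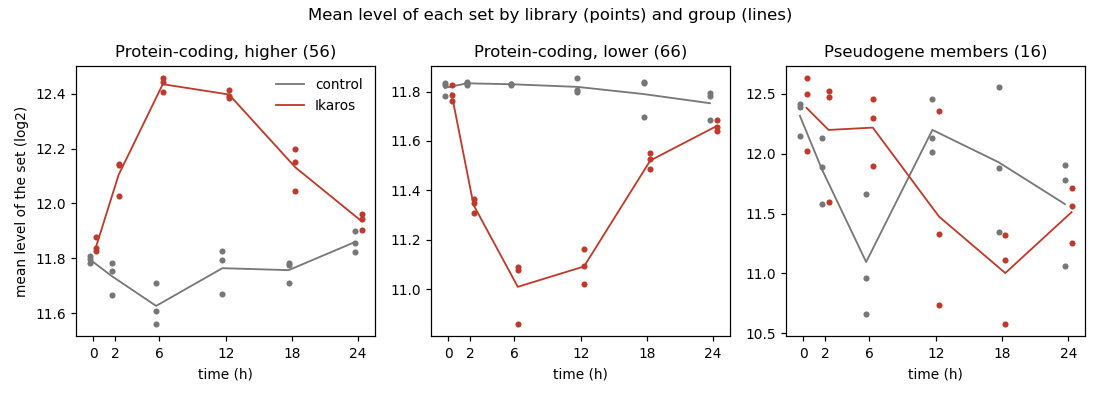
Mean level (log2, y axis) of 56 protein-coding rising members, 66 protein-coding falling members and the 16 pseudogene members against time (h, x axis), per library (points) and per group of 3 (lines), control in grey and Ikaros in red. In the protein-coding sets the Ikaros line departs and returns, and in pseudogenes the control line is lowest at 6 h, at a mean of 11.10, and the Ikaros line at 18 h, at 11.00.

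Genes of known pathways were taken from 26 lists, 12 of which held 14 members. List counts here and below stand beside 9.18% of all genes called higher and 9.88% lower at 2 h. At 18 h these shares were 29.0% and 29.2%. Some list counts lie near them, and no list was tested as a set. Of 71 genes of G2/M phase and mitosis 8 were higher and 4 lower at 2 h, and 22 and 15 at 18 h, with Cenpf and Ect2 as rising members. Cenpf, a kinetochore protein gene, was higher at 2 h (0.53, SE 0.15, adjusted p = 0.0156) with 13.75, 13.52 and 13.63 in Ikaros and 13.20, 12.97 and 13.13 in control cells. Of 51 S phase genes 2 were higher and 3 lower at 2 h, and 4 and 25 at 18 h, so E2f2, higher at both times, differed in direction from most called genes of its list. It was also higher at 2 h (0.56, SE 0.10, adjusted p = 0.000116).

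B lineage transcription factors held Runx3 and Pou2f2. Of the 40 measured, 8 were higher and 9 lower at 2 h, and 29 and 7 at 18 h, with a median difference of 0.89 at 18 h and 0.88 at 24 h, against 0.37 and 0.30 for Runx3 and 0.01 and 0.05 for Pou2f2. Pou2f2, the gene for Oct-2, had 12.89, 12.85 and 13.27 in Ikaros and 12.08, 12.29 and 12.59 in control cells at 2 h (0.68, SE 0.20, adjusted p = 0.0191), a call kept in 4 of 9 alternative fits. Of 37 lysosome and autophagy genes 9 were higher and 2 lower at 2 h, and 28 and 3 at 18 h, with a median of 0.83 at 18 h, when Tfeb itself differed by 0.01.

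Of 33 sterol and fatty acid synthesis genes 11 were higher and 2 lower at 2 h, and 15 and 5 at 18 h. Sc5d, which encodes a late cholesterol synthesis enzyme, was higher at 18 h (0.68, SE 0.17, adjusted p = 0.00137). Its Ikaros level was 12.37, 12.10 and 12.20 at 0 h and 12.90, 12.74 and 12.86 at 24 h. Control cells went from 12.03, 11.87 and 12.07 to 12.46, 12.49 and 12.76, so here too the Ikaros level had not come back. Of 24 p53 targets 2 were higher and 6 lower at 2 h, and 7 in each direction at 18 h. Ddb2, a DNA damage recognition gene, had 12.13, 12.31 and 12.95 in Ikaros and 10.97, 11.04 and 11.34 in control cells at 12 h and was not called at 2 h or 18 h. Of 31 endoplasmic reticulum chaperone genes 4 were higher and 1 lower at 2 h, and 7 and 17 at 18 h. Dnajb9, a co-chaperone gene, had 12.83, 12.91 and 12.66 in Ikaros and 11.61, 12.34 and 11.29 in control cells at 12 h. At 24 h the lines were again close, with 12.77, 12.58 and 11.99 in control and 12.63, 12.68 and 12.47 in Ikaros cells. The Ikaros level had not come back to its 0 h values of 11.71, 11.66 and 11.80. Control cells had 11.98, 11.72 and 11.83 at 0 h, so the small difference at 24 h went with a higher control level.

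Of 29 genes of PI3K, mTOR and insulin signalling 3 were higher and 7 lower at 2 h, and 13 and 5 at 18 h. Rps6ka1, the gene for the kinase RSK1, had 13.84, 14.12 and 13.97 in Ikaros and 13.09, 13.23 and 13.13 in control cells at 6 h, apart from each other, and overlapped at 18 h.

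Falling members of the lists were Zfp36l2, Fyn and Bcl2l2. Of 37 immediate early and ERK feedback genes 1 was higher and 14 lower at 2 h, and 12 and 18 at 18 h, and Zfp36l2 was among the 14. Of 31 genes of the pre-B receptor and its signalling 5 were higher and 11 lower at 2 h, and 16 and 8 at 18 h. Fyn, a Src-family kinase gene, had a narrow dip, with 13.11, 13.09 and 12.73 in Ikaros and 13.83, 13.95 and 13.81 in control cells at 12 h, and differences of -0.03 at 6 h and -0.18 at 18 h. Of 22 Bcl2 family and caspase genes 2 were higher and 4 lower at 2 h, and 9 and 7 at 18 h. Bcl2l2, the gene for the survival protein Bcl-w, had 10.13, 10.26 and 9.92 in Ikaros and 10.75, 11.01 and 10.56 in control cells at 2 h (-0.67, SE 0.19, adjusted p = 0.0128), a call made in 5 of 9 alternative fits.

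Skp2, Pde7a and Mir155hg were chosen after their values were seen, for their known roles. Skp2, the F-box subunit of a ubiquitin ligase that targets cell cycle inhibitors, had 12.34, 12.20 and 12.26 in Ikaros and 13.14, 13.09 and 12.69 in control cells at 2 h (-0.70, SE 0.13, adjusted p = 0.000184) and a difference of -0.16 at 18 h. Pde7a, a cAMP phosphodiesterase gene, was higher at 2 h (0.88, SE 0.09, adjusted p = 5.69e-08) and at 18 h (0.60, SE 0.09, adjusted p = 2.74e-06), and its 24 h values of 13.31, 13.39 and 13.30 lay among those of the control, 13.32, 13.36 and 13.31. Mir155hg, the host transcript of miR-155, had differences of -1.41 at 6 h and -1.13 at 12 h, where 1 Ikaros library at 8.16 stood below the other two at 10.28 and 10.42, and it was not called at 2 h or 18 h. Dlg2, a scaffold protein gene, was 1 of the 12 largest falls with a symbol. It had 11.24, 11.65 and 11.90 in Ikaros and 13.39, 13.22 and 13.12 in control cells at 6 h. At 18 h it was lower by limma (-0.64, SE 0.24, adjusted p = 0.0222).

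Membership depended on the thresholds and on single libraries. Just inside the mid-course threshold were Galnt7 (-0.80 at 12 h), Lats2 (-0.80 at 12 h) and 3110009E18Rik (0.80 at 6 h), and just outside it Senp5, Itpr3 and Wwox, all also at 0.80 in size when rounded. At the return threshold, A030009H04Rik, Tmem81 and Gm26387 had 24 h differences of 0.35, 0.35 and -0.35 and were members, while Card9 and Gm25663, at -0.35 and 0.35 at 24 h, and Qsox1, at -0.36 at 0 h, lay just beyond it. At the level minimum, Rps19-ps3, Gm13328 and Slc25a14 were inside with means of 9.51, 9.58 and 9.65, and Gm25492, Ncmap and Cpeb2 outside with 9.36, 9.35 and 9.10. When each replicate was left out in turn, 15 of the 74 rising and 18 of the 85 falling members met the rule all 3 times, among them Prr5, Tfeb, Pou2f2, Thbd, Evi2a, Zfp36l2 and Bcl2l2. In each direction 9 members never did, among them Lrfn1, Gm22806, 1700018M17Rik and Gm10241 of the rising and Fbxo28, AU020206, C030013D06Rik, Galnt7 and Gm26387 of the falling members.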

How the data were processed

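The study made 36 strand-specific, polyadenylated mRNA libraries from B3 cells. The authors aligned fragments to mm10 with TopHat2, keeping unique best hits, assigned them to genes with HTSeq, normalized with cqn, which accounts for GC content and gene length, and removed library preparation effects by ComBat in its non-parametric form. What was deposited are log2 levels with a constant added so that the lowest is 1. Versions are not given in the sources used here. Batch adjustment before deposition removes variation that a later fit cannot see, and no counts were used, so depth is unknown and n = 3 limits precision.

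Groups came from the sample labels. Members, gene lists and tests were chosen with earlier results of these data known. Tests used limma 3.58.1 under R 4.3.3, with 1 mean per group over 12 groups, two-sided, Benjamini-Hochberg adjusted over 12762 genes, and called at 0.05. The script was tested on simulated data. The comparisons were Ikaros and control cells at 2 h, the same at 18 h, the change between them, and each line at 18 h against 2 h. Alternatives were a replicate block, a filter at the 25th percentile, quantile normalization, trend and robust settings, a library preparation covariate, only the compared groups, and each replicate left out. No alternative was added later. The labels give shared culture batches, so replicate numbers pair the libraries. Deviations of the 18 pairs correlated from -0.06 to 0.51 across genes (median 0.13, 12 above 0.1).

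Genes named by rule are the 12 largest rises and 12 largest falls with a symbol in the deposited table, and members of the lists. Also by rule are those nearest the thresholds, and the 3 largest called differences in each direction at 2 h and 18 h. AU020206 was chosen after its values were seen. Other members, among them Ankrd28, Pafah1b3, Adap1, Skp2, Pde7a and Mir155hg, were given with values outside these rules. Positions are from GENCODE release 21 on GRCm38, which held 98.7% of genes and 160 of the 165 members. Promoters are from RefSeq GRCm38.p6, taking the start nearest the GENCODE one. The replicates are separate culture batches of 1 line. The result of 1 gene list is not reported here.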

Additional observations from a re-analysis of the deposited data

Results flagged for a closer look

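The difference between the lines changed between 2 h and 18 h, by the test of that change, for 16 of the named members. Over all genes this change was called higher for 21.2% and lower for 21.0%, so such calls were common in the whole table. The change was upward, on the log2 scale, for Thbd (3.41), Evi2a (2.03), Gsta4 (1.48), Fbxo28 (1.43), Zfp36l2 (1.40), E130102H24Rik (0.90) and Lmnb1 (0.76). It was downward for Gm23966 (-2.32), Gm15500 (-2.23), Tpt1-ps3 (-2.23), Gm2000 (-1.89), Lrfn1 (-1.21), Tfeb (-1.11), Prr5 (-1.04), Gm10138 (-0.94) and Runx3 (-0.71). Not all of these changes were returns. Gsta4 and Lmnb1 are rising members and Gm23966 and Gm10138 falling ones, so their changes ran in the direction of the mid-course difference, not back from it. Thbd, Evi2a, Gsta4, Fbxo28, Lrfn1, Tfeb and Prr5 were called in all 9 alternative fits, and the rest lost the call in at least 1. Gm15500, Tpt1-ps3 and Gm2000 share the library-to-library spread of the processed pseudogenes, and its part in their change was not tested.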

How the results depend on the processing

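Counts moved by more than 1.5 times in these cases, and the cause was not tested. The number of rising members was 130 with a mid-course threshold of 0.7, 53 with 0.9, 38 with a minimum at the median gene mean and 131 with no minimum, and the number of falling members was 37 and 160 with these last minima. Without one replicate the numbers ranged from 67 to 116 rising and from 63 to 142 falling. With group medians 41 of the 80 rising and 45 of the 91 falling members were kept. With the library preparation covariate, 14 rising members were called higher and 18 falling ones lower at 2 h, 17 and 15 at 18 h, and 5 rising and 6 falling members were called back toward the control in the change from 2 h to 18 h. A fit of only the compared groups gave 9 rising and 7 falling calls at 2 h and 7 falling calls in the change. Without one replicate the calls ranged from 12 to 23 rising and 11 to 34 falling at 2 h, from 11 to 30 and 8 to 41 at 18 h, and from 5 to 12 and 5 to 16 in the change. In Ikaros cells between the times they ranged from 11 to 17 rising members lower and 11 to 19 falling members higher.

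In the fit with a replicate block for culture batch, 27 rising and 34 falling members were called at 2 h, 32 and 31 at 18 h, and 16 and 19 in the change. In Ikaros cells alone it gave 19 and 24, and the change in rising members was the count it moved by more than 1.5 times. The filter, quantile normalization and the trend and robust settings kept each of these counts within 1.5 times. For named members called at 2 h, at 18 h or in the change, 392 alternative values kept the call, 94 kept the direction without the call and none reversed. Depth is unknown, so its limits could not be given.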
